A study of Mus musculus with 8 samples.

Results

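A set of 564 regions of the mouse genome carried a peak of acetylated histone H3 in both libraries of Arid1a-knockdown cells, and none in either library of control cells or of knockdown cells given EGF. They were chosen by peak presence alone from 33920 regions, or 1.66% of them, formed by merging all peaks that shared at least 1 bp. A region was kept where both knockdown libraries had a peak, neither control library did, at most 1 library of EGF-treated cells did, and neither library of EGF-treated knockdown cells did. Presence of a peak in all 8 libraries was thus used for the choice, and every difference between groups within these regions is a description. They are called EGF-erased knockdown gains here, a name for the pattern of peaks in the lists: a missing peak is not a measured absence of acetylation.

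The cells were 266-6, a mouse pancreatic acinar line, and all 8 libraries came from this 1 line. The 4 groups, with 2 libraries each, were siRNA against Arid1a with EGF at 40 ng/ml, siRNA against Arid1a with a vehicle of 0.1% BSA, a non-targeting siRNA with EGF, and a non-targeting siRNA with vehicle. They are called knockdown plus EGF, knockdown, EGF and control. The siRNAs were given at 25 nM for 48 h, every group was starved of serum overnight, and EGF or vehicle was given for 8 h. The labels call the cells without knockdown Arid1a-wildtype. Neither Arid1a expression nor acinar marker genes were analysed here, since positions are in build mm9 and a gene annotation of that build was not used here. For the same reason no region is tied to a gene and no genome sequence is shown.

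Acetylation of histone H3 at lysine 27 (H3K27ac) is placed by the acetyltransferases p300 and CBP and removed by histone deacetylases, and it marks active promoters and enhancers. ARID1A is a subunit of the BAF form of the SWI/SNF complex, which moves nucleosomes with energy from ATP, and its loss is known to alter acetylation at enhancers. EGF binds the EGF receptor and signals through the ERK kinases. In the pancreas this pathway is known for driving acinar cells towards a duct-like state. The comparison of knockdown with control cells asks which acetylated regions appear with less Arid1a, and the EGF arms ask what happens to them under growth factor signalling.

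The lists held 22030 and 23256 peaks for knockdown plus EGF, 26844 and 27558 for knockdown, 22361 and 23080 for EGF, and 22167 and 28281 for control. Read depth is unknown, and longer lists can come from deeper libraries, which was not tested. The longest list was that of control replicate 2, so the knockdown lists exceeded all others except that one. The labels do not say whether both libraries of a group stem from separate cultures, so the p-values reflect only the spread between libraries, which may be technical.

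EGF-erased gains were the most frequent class among regions gained with knockdown in the deposited lists. Of 1032 regions with a peak in both knockdown libraries and neither control library, 564 (54.7%) met the rule. A further 244 (23.6%) kept a peak in both knockdown plus EGF libraries, and 211 (20.4%) kept one in a single such library. The remaining 13 lacked a peak with knockdown plus EGF but had one in both EGF libraries. The knockdown plus EGF lists, of 22030 and 23256 peaks, were shorter than the knockdown lists of 26844 and 27558. Whether list length or weak peaks account for the 54.7% was not tested. Most EGF-erased gains were private to knockdown: 537 had a peak in no other library, and 27 had one in a single EGF library, 11 in EGF replicate 1 and 16 in EGF replicate 2.

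Peaks of the erased gains were short. The covered length, which is the sequence within a region that lies under peaks of a library, ranged over 200 to 2102 bp in knockdown replicate 1, with a median of 541.5 bp. In knockdown replicate 2 it ranged over 200 to 3791 bp, with a median of 559 bp. The merged regions had a median width of 798 bp, with quartiles at 562.5 and 1058 bp, against 1891 bp for the other 23026 regions with a peak in both knockdown libraries. Gains kept with EGF had a median width of 1056.5 bp, and the 545 regions present in knockdown and control but in no EGF-treated library had 1294 bp. Regions given by the same rule set on another group were of like or smaller width, with medians of 541 bp for knockdown plus EGF, 804 bp for EGF and 789 bp for control. By width, 56 erased gains were under 400 bp and 47 were 1500 bp or more.

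The peaks were also weak, close to the limit of the authors' peak caller. Strength is given here as the deposited −log10 q of a peak, which no deposited peak had below 1. Its median over the erased gains was 1.69 in knockdown replicate 1 and 1.70 in replicate 2, with quartiles at 1.33 and 2.22, and at 1.44 and 2.17. Gains kept with EGF had medians of 2.03 and 2.11, and the other regions with both knockdown peaks 5.32 and 5.54. Ranked by deposited score within their own list, the median peak of an erased gain stood at percentile 13.1 in replicate 1 and 14.5 in replicate 2. Fold enrichment over the caller's background, the authors' own ratio, had medians of 3.49 and 3.41, against 5.15 and 5.22 for the other regions with both knockdown peaks.

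The share of regions that showed this pattern fell steadily with strength. Among 728 regions whose weaker knockdown peak had a −log10 q under 1.25, 145 (19.9%) were erased gains. The share was 11.9% of 1185 regions between 1.25 and 1.5, 6.76% of 2751 between 1.5 and 2, and 2.27% of 3702 between 2 and 3. Between 3 and 5 it was 0.179%, or 7 of 3921 regions, and among 11303 regions at 5 or above a single one had the pattern. Regions lost with EGF in both Arid1a states had a flatter profile, at 6.73%, 6.75%, 7.52%, 4.05% and 1.35% of the same first 5 bands. Gains kept with EGF made up 3.43%, 3.29%, 3.45%, 1.65% and 0.587% of them. Regions with a peak in all 8 libraries went the other way, with 4.81% of the weakest band and 98.4% of the strongest.

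**Figure D1:**
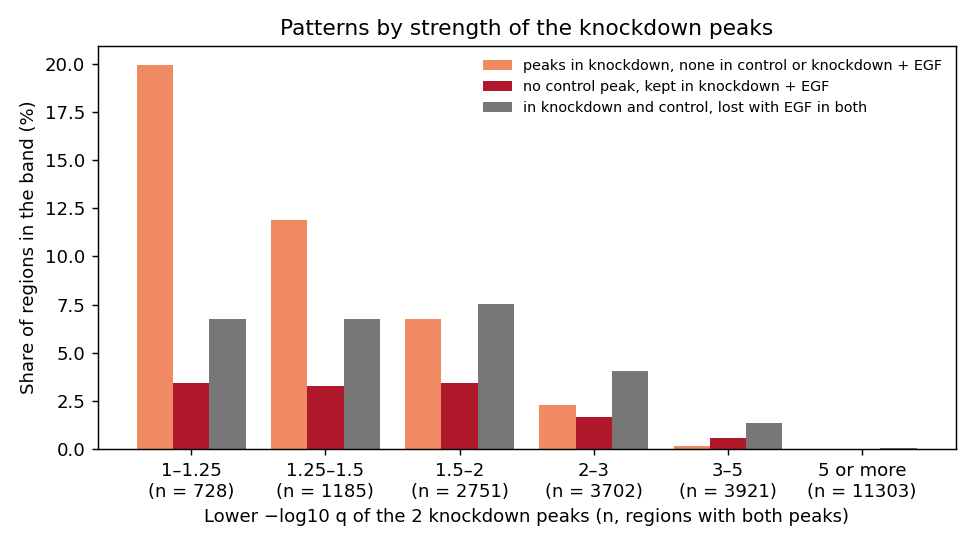
Bars give the share (%) of regions with a peak in both knockdown libraries that fall into each of 3 patterns, by the lower −log10 q of their 2 knockdown peaks. Erased gains take 19.9% of the weakest band and 0.179% of the band from 3 to 5, while the other patterns change less over the first 3 bands.

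The knockdown replicates placed these peaks at the same sites, but length and strength correlated weakly between them within the narrow range of the set. In 563 of 564 regions the peaks of both replicates touched the same bases, as the rule of merging nearly ensures. Their shared sequence was a median of 0.468 of their joint sequence, with quartiles at 0.273 and 0.710, and 265 regions (47.0%) reached 0.5. In the remaining region, on chromosome 16 from 22582137 to 22582681, the peaks of 211 and 240 bp did not touch, and they were joined through a peak of 259 bp in EGF replicate 2. Across the erased gains Spearman's rho between the knockdown replicates was 0.26 for covered length and 0.30 for −log10 q, over n = 564 regions. Over the 16607 regions with a peak in all libraries it was 0.91 and 0.95, in the same 2 libraries. Neither replicate was wider throughout: 292 regions were longer in replicate 2, 269 in replicate 1 and 3 were equal.

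**Figure D2:**
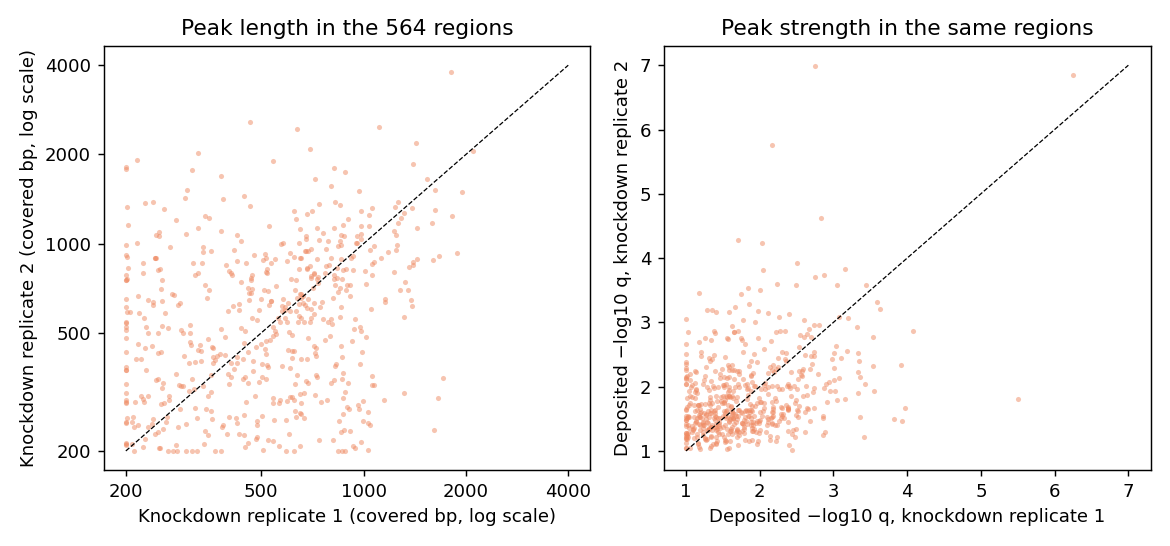
Each point is 1 erased gain; the left panel plots its covered length (bp, log axes) and the right panel the deposited −log10 q in knockdown replicate 1 and replicate 2, with the line of equality dashed. Points scatter widely around the line, and a single region lies above 6 in both replicates.

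One erased gain stood apart by strength. On chromosome 14 from 47441510 to 47441842, peaks of 286 and 333 bp had −log10 q of 6.24 and 6.85 and fold enrichments of 5.92 and 6.14 in the knockdown replicates. These placed it at score percentiles 61.6 and 64.3, the only erased gain above the median of both lists. No other library had a peak there, and the nearest other region, with peaks in all 8 libraries, lay 9158 bp away. The next in rank had a lower percentile under 43: chromosome 10 from 6805354 to 6806248, with −log10 q of 3.44 and 3.58 and peaks of 244 and 895 bp. It was far from other acetylated sequence, 302795 bp from the nearest region. Next came chromosome 7 from 148316896 to 148317815, with peaks of 644 and 627 bp and −log10 q of 3.59 and 3.32.

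The other 7 of the 10 strongest regions were spread over 6 chromosomes. On chromosome 17 from 56805863 to 56806633 the knockdown peaks were 736 and 771 bp long, with −log10 q of 3.20 and 3.07. A region on chromosome 10 from 74495028 to 74495736 had 683 and 606 bp, at 3.16 and 3.84. These were alike in length between replicates, as was the shortest of the 10, on chromosome 19 from 5098273 to 5098483, with 211 and 200 bp. Others differed more than 2-fold between replicates: chromosome 13 from 54063745 to 54064964 had 352 and 1220 bp, chromosome 2 from 181430335 to 181431277 had 355 and 943 bp, and chromosome 3 from 39043191 to 39044161 had 865 and 416 bp. The last, on chromosome 10 from 108573855 to 108574395, had 541 and 301 bp. None of the 10 had a peak in an EGF library.

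The widest erased gains were a different set, none of them among the 10 strongest. The region with the most covered sequence lay on chromosome 7 from 59111522 to 59115611, with 1810 and 3791 bp in the knockdown replicates. Its −log10 q was 1.88 and 1.94, against medians of 1.69 and 1.70 over the erased gains. On chromosome 2 from 24699214 to 24701315 the replicates were nearly equal at 2102 and 2049 bp, with −log10 q of 1.40 and 1.42. Chromosome 15 held 2 of the 10 widest, with 1430 and 2187 bp from 30234252 to 30236438, and 1532 and 1648 bp from 100511775 to 100513422. In erased gains 1500 bp wide or more the lower −log10 q had a median of 1.49, against 1.43 to 1.64 in narrower bands. The wide regions named so far had long peaks in both replicates. Further ones lay on chromosome 11 from 78358535 to 78360353 (1624 and 1514 bp), chromosome 3 from 81851553 to 81853522 (1945 and 1494 bp) and chromosome 1 from 87793802 to 87795998 (1401 and 1858 bp). Those on chromosome 16 from 33962886 to 33964784, with 1824 and 1239 bp, and chromosome 17 from 35967972 to 35970643, with 1114 and 2471 bp, differed more. The replicates were furthest apart on chromosome 7 from 19667393 to 19669835, at 638 and 2443 bp.

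The weakest peaks at the edge of the rule had a −log10 q just above 1 on both sides, as their choice by lowest value ensures. The 3 erased gains with the lowest −log10 q in either knockdown library lay on chromosome 2 from 103881791 to 103882634 (1.003 and 2.05), chromosome 9 from 120687339 to 120687781 (1.003 and 1.48) and chromosome 10 from 18427741 to 18428985 (1.004 and 1.19). The 3 regions nearest to the rule from outside each had a peak in control replicate 2 at a −log10 q of 1.01. On chromosome 4 from 53134467 to 53135916 the knockdown peaks were 989 and 918 bp long, against 200 bp for that control peak. On chromosome 1 from 171280539 to 171281519 the knockdown peaks were 908 and 559 bp, against 552 bp in control. On chromosome 11 from 75076092 to 75077180 they were 248 and 531 bp, against 815 bp in control. In all, 1130 regions missed the rule by a peak in 1 control library alone, 1067 of them in control replicate 2 and 63 in replicate 1. A further 190 missed it by a peak in 1 knockdown plus EGF library, and 2758 by a peak in only 1 knockdown library.

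The 27 regions with a peak in 1 EGF library had somewhat shorter knockdown peaks than the rest. Their EGF peak was 200 to 915 bp long, with a median of 344 bp, and its −log10 q was 1.11 to 2.50. Mean covered length in knockdown had a median of 515 bp there and 581.5 bp in the 537 regions with no EGF peak, while the lower −log10 q had medians of 1.58 and 1.48. The longest EGF peak lay on the sequence 9_random from 183677 to 184802, with 1126 and 894 bp in knockdown and 915 bp in EGF replicate 2. By the lower −log10 q of both knockdown replicates, the strongest of the 27 was on chromosome 1. There, from 134537576 to 134538399, the knockdown peaks were 644 and 572 bp and the EGF replicate 2 peak was 344 bp. These 2 were named after their values were seen.

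The same rule was set on each other group in turn, with the group that differs from it in siRNA and the one that differs in EGF as the groups without a peak. Against the 564 regions for knockdown, this gave 60 for knockdown plus EGF, 167 for EGF and 136 for control. Peaks in these mirror sets were as weak: median −log10 q was 1.68 and 1.66 for knockdown plus EGF, 1.63 and 1.94 for EGF, and 1.74 and 1.86 for control. The excess in knockdown did not hold when every list was shortened to its 22030 best-scored peaks, the length of the shortest list. Then 256 regions had the knockdown pattern, against 137 for the rule set on knockdown plus EGF, 268 on EGF and 220 on control. Of those 256, 113 overlapped one of the 564 regions, or 20.0% of the 564. Shortening drops the lowest-scored peaks, and erased gains stood at median percentiles of 13.1 and 14.5. The setting itself thus removed many of them. With other limits, which did not make the lists equally long, knockdown still had the most regions. At a −log10 q of at least 2 the rule gave 428 for knockdown, 50 for knockdown plus EGF, 146 for EGF and 190 for control. The 428 overlapped 92 of the 564 regions, or 16.3%. With only peaks above the median score of all lists it gave 386, 44, 65 and 53 in the same order. Of those 386 regions 1 alone overlapped the 564, so a stricter limit picked other sites. The limit itself fixed this, since a single erased gain had both knockdown peaks above the median.

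**Figure D3:**
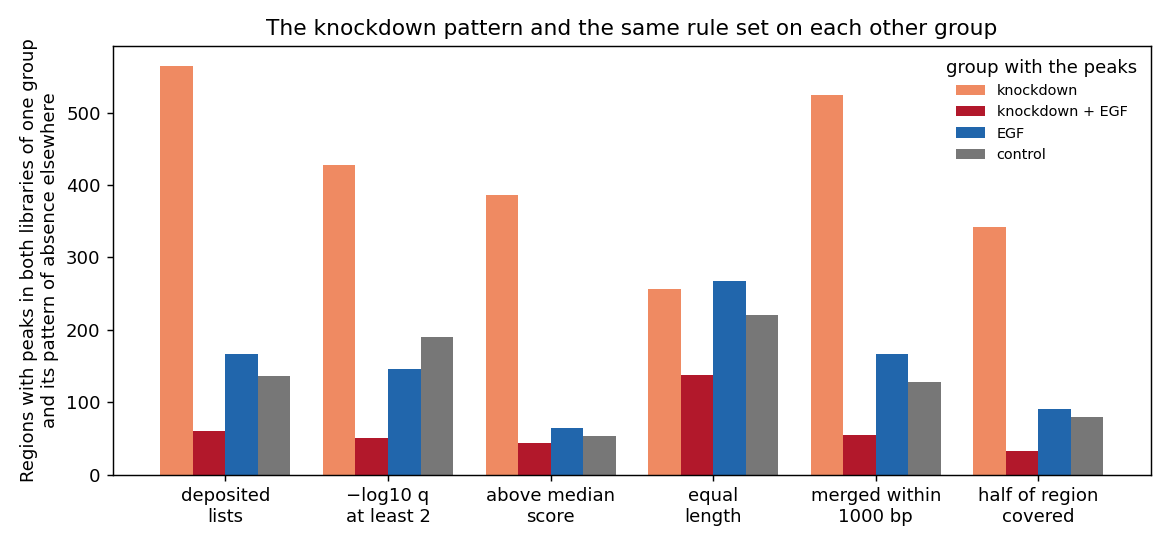
Bars count the regions with peaks in both libraries of the group named in the legend and the matching absence elsewhere, under 6 ways to treat the lists. Knockdown leads under every way but lists of equal length. It has 564 on the deposited lists, while on lists of equal length it has 256, EGF 268, control 220 and knockdown plus EGF 137.

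Single libraries moved the number of erased gains as well. Without control replicate 2 the rule gave 1631 regions and without control replicate 1 it gave 627. Without knockdown replicate 1 or 2, where a single knockdown peak then sufficed, it gave 2083 and 1803. Leaving out an EGF or a knockdown plus EGF library gave 577 to 688.

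Covered length in 28146 regions, those where at least 2 libraries had a peak, was fitted by limma on log2(covered bp + 200), a scale that understates changes of short peaks. Of the 564 erased gains, all of which were tested, 209 (37.1%) were called higher with knockdown than in control at a Benjamini-Hochberg adjusted p under 0.05, beside 1.09% of all regions. The rule used this contrast, so these calls restate the choice and nothing is read from the share. Their median log2 difference was 1.89, with a range of 1.02 to 3.82, and the median over all regions was 0.18. With knockdown plus EGF against knockdown, 366 (64.9%) were called lower, beside 6% of all regions, and the same holds for this contrast. The median log2 difference was -1.89, against -0.32 over all regions. The sizes mirror each other because covered length was 0 in every library of control and of knockdown plus EGF. In the 537 regions with no EGF peak it was 0 in both EGF libraries as well. Within such a region only the knockdown libraries added spread, so its standard error and p-value can be too small. The 209 were all among the 366.

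The difference between the knockdown effects with and without EGF was fitted as an interaction over all regions. Its direction in the erased gains was fixed by the rule, so its values there are a description. No erased gain was called by limma, nor was any other region (0% of all), although 551 of the 564 and 2525 of all 28146 regions had an unadjusted p under 0.05. The median interaction was -1.92, against -0.16 over all regions, and the lowest adjusted p was 0.153. Calls with knockdown fell to 0, beside 0% of all regions, when the replicate number was added as a block. They also depended on the EGF and the knockdown plus EGF libraries, which enter through the shared spread. Calls with EGF in knockdown cells fell to 212 with the block, beside 3.84% of all regions, and depended on both knockdown plus EGF libraries. Control replicate 2 also mattered: without it, calls with knockdown and by the interaction rose over all regions and not only in the erased gains. Covered length of the erased gains was 0 in both control libraries, so their differences from control stayed the same. That fit rests on a single control library, so nothing is read from its calls.

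With covered length at 0 in control and knockdown plus EGF, whether an erased gain was called depended by construction on its length in knockdown and on the gap between the replicates. The 209 called with knockdown had a median of 784.5 covered bp in knockdown cells, against 444.5 bp for the 355 others. Their replicates differed by a median log2 of 0.24, against 0.66. The lower −log10 q had medians of 1.46 in the called regions and 1.51 in the others. Of the 10 widest regions 9 were called higher with knockdown and all 10 lower with EGF, while of the 10 strongest 3 and 7 were.

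Among single regions, that on chromosome 2 from 24699214 to 24701315 had the lowest interaction p. It had 2102 and 2049 bp in knockdown and 0 in all other libraries, a log2 difference of 3.51 ± 0.30 from control (SE, limma adjusted p = 0.0386) and an adjusted p of 0.0154 for its fall with EGF. The region from 100511775 to 100513422 on chromosome 15 followed, with 1532 and 1648 bp and a difference of 3.16 ± 0.29 from control (SE, limma adjusted p = 0.0386). On chromosome 11 from 78358535 to 78360353 the difference was 3.14 ± 0.29. The strongest region, on chromosome 14, had a difference of 1.35 ± 0.26 from control, with a limma adjusted p of 0.0896 for knockdown and 0.0404 for EGF in knockdown cells. Its short peaks give small values on this scale.

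Erased gains lay closer to other acetylated sequence than the other regions with both knockdown peaks did. The median gap to the nearest other region was 5058.5 bp, against 8164 bp for the other regions with both knockdown peaks, 9221 bp for gains kept with EGF and 8631 bp for regions lost with EGF in both states. A region with peaks in all 8 libraries lay within 10 kb of 267 erased gains (47.3%), against 36.6% of the other regions with both knockdown peaks. Within 1 kb the shares were 7.80% and 2.97%. The 60 regions given by the rule set on knockdown plus EGF had nearly the same values as the erased gains, with a median gap of 5360 bp and a region with peaks in all 8 libraries within 10 kb of 48.3% and within 1 kb of 6.67%. Those given by the rule set on control and on EGF lay farther away, with median gaps of 9604 and 10116 bp. A region with peaks in all 8 libraries was within 10 kb of 34.6% and 25.7% of them, and within 1 kb of 3.68% and 0.599%. Many erased gains were thus near sites acetylated in every group, yet 95 of them (16.8%) were more than 50 kb from any such site. Strength changed little with this gap: the median lower −log10 q was 1.52 within 1 kb, 1.47 from 1 to 10 kb, 1.52 from 10 to 50 kb and 1.42 beyond.

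The nearest neighbours themselves had median differences close to those over all regions. The nearest region had peaks in all 8 libraries for 286 erased gains (50.7%) and in a single library for 103 (18.3%). Of 446 tested neighbours outside the set, 4 (0.897%) were called higher with knockdown, beside 1.09% of all regions, and 19 (4.26%) were called lower with EGF in knockdown cells, beside 6%. The shares over all regions include the erased gains, so they are not a like benchmark for the neighbours. Erased gains were 209 of the 308 regions called higher and 366 of the 1689 called lower. Median log2 differences of the neighbours were 0.23 and -0.30, against 0.18 and -0.32 over all regions. These are described only, since they come from the libraries used for the choice.

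Sequence beside the erased gains held more peak sequence, in every group, than sequence beside the other regions with both knockdown peaks. Within 10 kb on either side, leaving out the erased gains themselves, peaks covered 1345 and 1432 bp per region in knockdown plus EGF, 1824 and 1936 bp in knockdown, 1193 and 1201 bp in EGF, and 1278 and 1716 bp in control. Per 1 Mb of sequence covered by peaks in the library, this was 39.1 ± 0.271 for knockdown plus EGF, 39.6 ± 0.284 for knockdown, 34.5 ± 0.974 for EGF and 36.8 ± 0.605 for control (SD, n = 2 each). Beside the other regions with both knockdown peaks it was 26.3 ± 0.0332 for knockdown plus EGF, 26.7 ± 0.452 for knockdown, 24.9 ± 0.157 for EGF and 25.9 ± 0.0314 for control (SD, n = 2 each). All 4 knockdown libraries, with or without EGF, lay above all 4 others beside the erased gains, and the same order held beside the other regions with both knockdown peaks and beside gains kept with EGF. It did not hold beside regions lost with EGF in both states, at 22.4 and 22.0 for knockdown plus EGF and 26.2 and 25.8 for control. Within 50 kb it also failed beside the other regions with both knockdown peaks, with 132.8 in knockdown replicate 1 and 134.2 in control replicate 1. Beside the erased gains, knockdown plus EGF over knockdown was 0.988 within 10 kb after scaling, so their flanks differed little between these groups, and knockdown over control was 1.08. No test is given, since the flanks come from the contrast used for the choice.

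**Figure D4:**
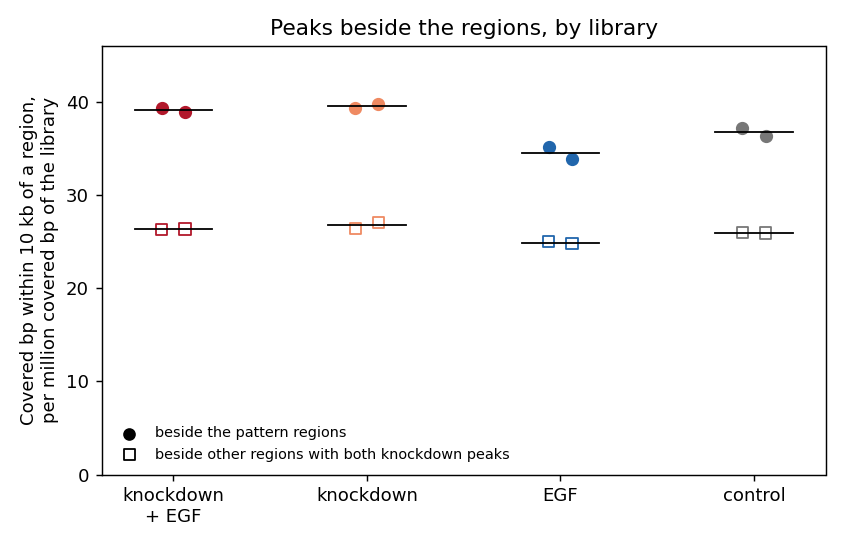
Points give covered sequence within 10 kb of a region, per 1 Mb of sequence covered in each library, and lines the group means; filled points are beside erased gains and open squares beside the other regions with both knockdown peaks. Beside erased gains the means are 39.1, 39.6, 34.5 and 36.8 for knockdown plus EGF, knockdown, EGF and control.

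The erased gains were found on every chromosome from 1 to 19 and on X, with 1 more on 9_random. Chromosomes 4, 2 and 11 held the most, with 53, 52 and 47. Chromosome 4 had 9.40% of them and 7.32% of the other regions with both knockdown peaks, and chromosome 2 had 9.22% and 7.35%. Chromosome 3 was lower, with 15 erased gains (2.66%, against 4.69%), and chromosome X held 3 (0.532%, against 2.14%). No test was run on these shares.

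**Figure D5:**
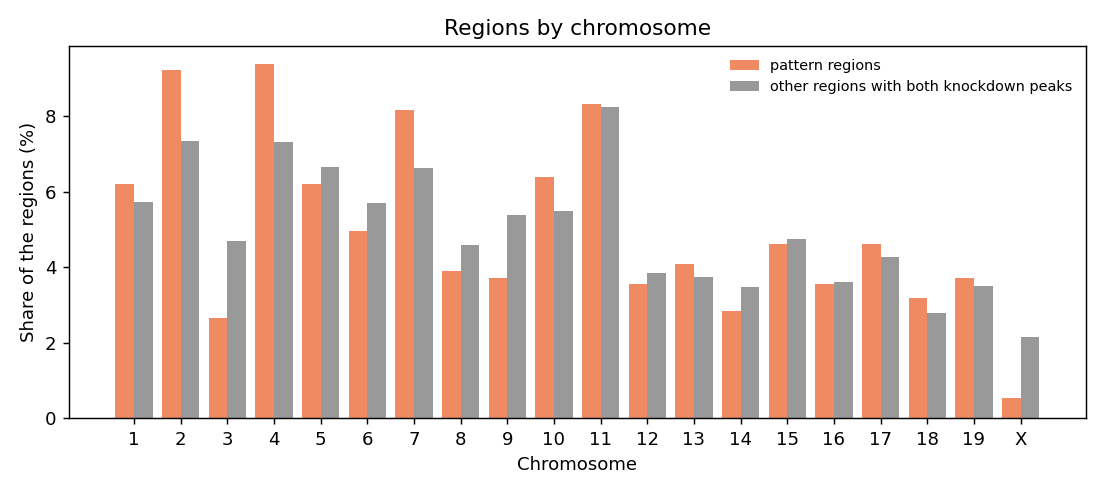
Bars give the share (%) of erased gains and of the other regions with both knockdown peaks on each chromosome. Chromosomes 2 and 4 have higher bars for erased gains, at 9.22% and 9.40%, and chromosomes 3 and X have lower ones, at 2.66% and 0.532%.

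Few erased gains were neighbours of one another. The median gap between an erased gain and the nearest other one was 734761 bp, and 22 of them (3.90%) had another within 10 kb. The closest pair lay on chromosome 7, from 133786044 to 133786633 and from 133787404 to 133788098, 770 bp apart, with knockdown peaks of 201 and 590 bp in the first and 462 and 646 bp in the second. The next pairs were 1368 bp apart on chromosome 1, from 182861237 to 182861868 and from 182863237 to 182864477, and 1449 bp apart on chromosome 19, from 7220810 to 7221165 and from 7222615 to 7223862. On chromosome 19 the second member had 1248 and 955 bp and differed from control by 2.69 ± 0.30 (SE, limma adjusted p = 0.0386). On chromosome 1 the first member, with 240 and 256 bp in knockdown, also had 632 bp in EGF replicate 1.

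At the other extreme some erased gains were solitary. The one farthest from any region, on chromosome 2 from 47387006 to 47387303, was 543024 bp from the next and had short knockdown peaks of 200 and 212 bp. On chromosome 10 a region from 5151512 to 5152197 had 665 and 666 bp, with −log10 q of 2.87 and 3.73, and lay 461006 bp from the next. On chromosome 18 a region from 21903744 to 21905612 had 1590 and 1176 bp and lay 445065 bp from the next. The last 2 were called higher with knockdown, with log2 differences of 2.11 ± 0.28 and 2.97 ± 0.31 (SE, limma adjusted p = 0.0390 and 0.0386).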

How the data were processed

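H3K27ac libraries, 2 for each of 4 groups, came as 1 peak list per library with 9 columns, so peaks were called per sample. Per the submitters' processing notes the tools included MACS2 2.1.1.20160309.0, Bowtie2 2.3.4.2, deepTools 3.0.2 and SAMtools, with no role stated, and the build was mm9. Use of an input library is not given in the sources used here. In 195566 of 195577 peaks the score as deposited equals 10 times −log10 q cut to a whole number. The deposited fold enrichment is the authors' ratio over the caller's background. The deposited −log10 p and −log10 q come from the same caller. These serve here only for describing, ranking or filtering peaks.

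Peaks sharing at least 1 bp were merged, and positions are 1-based. The absent groups were required to have no peak. Covered length per region was fitted with limma 3.58.1 in R 4.3.3 (empirical Bayes with a trend) on log2(covered bp + 200), with a mean per group and the spread shared by all 8 libraries. Benjamini-Hochberg adjustment ran over 28146 regions. Interval steps and limma were tested on simulated data. Other steps used Python 3.11.15 with matplotlib 3.10.9, SciPy 1.17.1, pandas 2.3.3 and NumPy 2.4.6.

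The members, the mirror rule and the rules for naming regions were chosen with earlier results of these data known. Named regions are the 10 highest by the lower score percentile of both knockdown libraries, the 10 with the most covered sequence there, the 3 weakest and the 3 nearest outside the rule, the 5 with the lowest interaction p, the 3 closest pairs and the 3 farthest from other regions. Planned motif searches, gene lists and marker checks need a genome or annotation of build mm9 and were not run. Read depth is unknown, so no counting interval is given.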

Additional observations from a re-analysis of the deposited data

How the results depend on the processing

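The number of regions with the pattern, 564, was 256 on lists of equal length and 342 where both knockdown libraries had to cover 50% of the region. It was within 1.5 times of 564 with a −log10 q of at least 2 (428, overlapping 92 of the 564, or 16.3%), peaks above the pooled median score (386, overlapping 1), merging within 1000 bp (525), no nearby control or knockdown plus EGF peak within 1000 bp (495), and no or any number of EGF libraries (537 and 577). With one library left out it ranged from 577 to 2083. Calls with knockdown, 209, were 466 and 60 with a pseudocount of 50 and 1000 bp, beside 2.44% and 0.355% of all regions. On lists of equal length they fell to 77, while the share of all regions called rose from 1.09% to 1.67%. They were 0, as over all regions, without the filter, after quantile normalization and with the replicate block. An unadjusted limma p under 0.05 was found for 559 without the filter, 196 after quantile normalization and 557 with the block. Over all regions these numbers were 3532 of 33920, 3114 of 28146 and 3682 of 28146. Calls lower with EGF in knockdown cells, 366, were 49 after quantile normalization, 86 on lists of equal length and 212 with the replicate block. Beside these, 1.85%, 3.5% and 3.84% of all regions were called. Interaction calls, 0, were 65 on lists of equal length, beside 1.42% of all regions. Each of these 3 counts moved widely with the library left out. Such a fit rests on a single library in 1 group, so nothing is read from its calls. Without either knockdown library, a region with 1 peak and no other has no residual spread. The lone library is then assumed to vary like the other groups. Other causes of the changes in these counts were not tested. Region by region, the gap between replicates 1 and 2 of a group did not follow that of another group (correlations of -0.009 to 0.032). These correlations cannot show a shift common to all regions, and the list of replicate 2 was the longer in every group. The block pairs libraries by number only. A filter of 4 libraries leaves no erased gain to test, and the motif windows were not run. Of the named regions' 896 recomputed differences, 572 kept their direction and side of the threshold, 246 lost and 76 gained the call, and 2 changed sign, both after quantile normalization for EGF in knockdown cells: 0.026 on chromosome 19 from 5098273 and 0.030 on chromosome 2 from 47387006.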

Other observations

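A stretch of 66.9 kb on chromosome 2 from 31921850 to 31988779 held 4 erased gains in a row with no other region between them, the longest such run and chosen after its values were seen. The first, ending at 31922526, had peaks of 518 and 424 bp in the knockdown replicates. The second, from 31929626 to 31930412, had 649 and 208 bp, and the third, from 31951247 to 31951763, had 421 and 258 bp. The last, starting at 31987894, had 424 and 876 bp and lay 3607 bp from a region with peaks in all 8 libraries. No other library had a peak in any of them, and all 4 had a lower −log10 q under 1.5, between 1.02 and 1.43. Runs of at least 2 erased gains with no other region between numbered 11 and took in 24 of the 564 regions.

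On chromosome 4, 5 erased gains lay between 149372381 and 149829526, among 27 regions in all, and no window of 500 kb held more; a second one with 5, up to 149946770, overlaps it. Their knockdown peaks were 308 to 1314 bp long.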
